A study of Coregonus migratorius and Coregonus peled with 8 samples.

Results

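The response of peled larvae to rapid warming was described by setting the library of acutely heated peled against the library of unheated peled reared beside them. The peled (Coregonus peled) is a Siberian whitefish, a coldwater member of the salmon family. A gene was read when the higher of the 2 libraries held a value of at least 10, which left 1216 of the 2184 listed genes. For each gene the log2 ratio of acute to control was taken on value + 1, and a gene at least 2-fold from the control is called higher or lower here. Each side is 1 pool of 12 to 16 whole larvae, so the ratios describe 2 libraries, carry no replicate error and were not tested.

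The study sequenced poly(A) RNA of whole larvae in 8 pooled libraries, 4 of peled and 4 of the Baikal omul (Coregonus migratorius). All larvae of the 2 libraries compared were kept in aquaculture for 1.5 months at 9 to 12 °C, and the acute larvae were then brought to 21 °C for 1 h. The other states were chronic stress, in which reared larvae were warmed to 21 °C 3 times a week for 24 h each, and larvae from nature, collected from ponds. The labels state no age, genotype or strain. A whole larva mixes all tissues, so a higher value can come from more RNA per cell or from more cells of a type, and these cannot be told apart.

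Animals warmed beyond their usual range switch on the heat shock response, in which heat shock factors drive genes of chaperones, proteins that hold or refold damaged proteins. In fishes, heat-inducible chaperone transcripts are kept low at rest, climb quickly on warming and decline again after it. Salmonids carry many gene duplicates from an ancestral genome duplication, and a de novo assembly can split or merge such copies. The genes here are known by assembly identifier alone and the files do not pair them with names, so it was not tested whether any of them is a chaperone, and none is given a function. The sequences behind the identifiers were not used here.

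The deposited values are normalized expression signals of unstated unit, and whether they were scaled for gene length is not stated, so tests and ratios compare levels within a gene, and ranks or sums of values over genes hold for the deposited unit only. The summed value was 80854 in control and 79169 in acute peled, and 79169 to 228369 over the 8 libraries. The median gene stood at 9.17 in control and 9.69 in acute peled. In the control 49 genes were listed at 0, and in the acute library 24. The listed genes are a selection by an unstated rule, and sequencing depth is unknown.

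After 1 h of warming the listed genes of peled differed from the control unevenly, with a long tail of strong increases and no decrease of like size. Of the 1216 genes read, 149 (12.3%) were at least 2-fold higher and 86 (7.07%) at least 2-fold lower, while 981 stayed within 2-fold. The median log2 ratio over all genes read was -0.06, so the middle of the list was close to the control, and 569 of the 1216 lay above the control. The quartiles of the log2 ratio were -0.44 and 0.41. The asymmetry grew with size. At least 4-fold higher were 54 genes and at least 4-fold lower 8. At least 8-fold higher were 29 genes (2.38%) and at least 8-fold lower 0. At least 16-fold higher were 16, at least 32-fold 13 and at least 64-fold 8. The highest log2 ratio was 7.83 and the lowest -2.98. In omul, read the same way, 20 genes were at least 8-fold higher and 7 at least 8-fold lower.

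**Figure D1:**
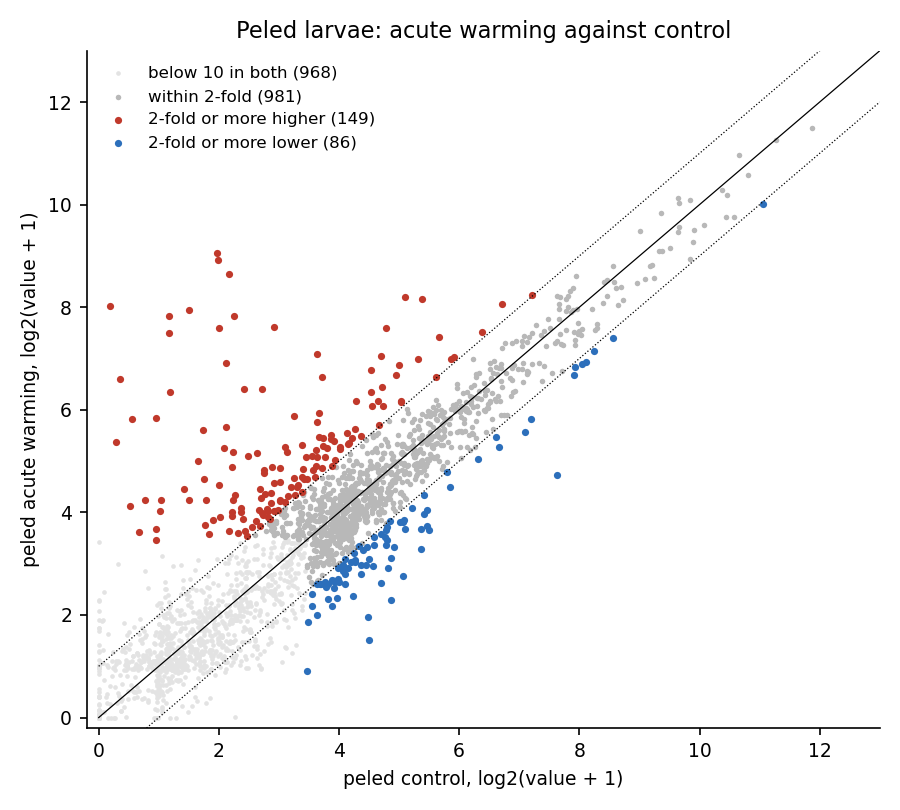
Each point is a gene, with log2(value + 1) in control peled on the x axis and in acute peled on the y axis. The solid line marks equal values and the dotted lines 2-fold; the 149 higher genes spread far above the upper line at low control values, while the 86 lower genes stay close to the lower line.

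**Figure D2:**
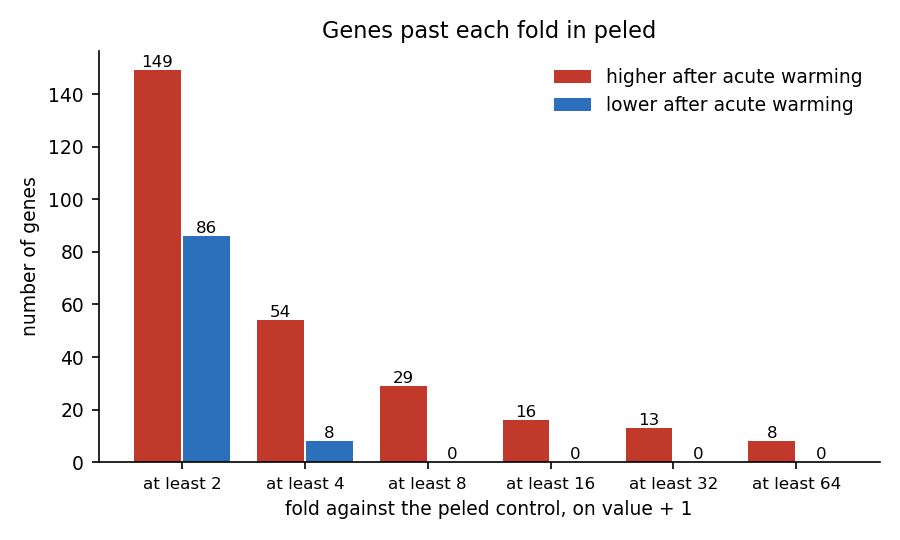
Bars give the number of the 1216 genes read that were higher (red) or lower (blue) than the peled control by at least the fold on the x axis. At 8-fold and beyond there were 29 higher genes and 0 lower ones.

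The minimum value and the 2-fold limit each lie in a populated range. Among genes at least 2-fold apart, the one just inside the minimum was at 0.93 in control and 10.09 in acute peled, and the one just outside it at 9.82 and 4.41. With log2 ratios of 0.9 to 1, 19 genes fell just short of being counted as higher, and 14 lay just past the limit, at 1 to 1.1. On the lower side 18 fell just short and 16 lay just past it.

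The strongest increases began near the floor of the control. TRINITY_DN48459_c0_g2 had the highest ratio. It was at 0.14 in control and 259 in acute peled, at 6.26 in chronic peled and 2.26 in peled from nature, a log2 ratio of acute to control of 7.83. In omul it was at 4.48 in the control, 28.6 in the acute, 0.86 in the chronic and 2.34 in the nature library, so the acute library was the highest of its species in both. TRINITY_DN15783_c0_g1 had the next highest ratio and the largest gain in value. It was at 2.94 in control, 530.2 in acute, 34.4 in chronic and 3.94 in nature peled, a log2 ratio of 7.08. In omul it was at 3.17 in control, 138 in acute, 20.8 in chronic and 2.19 in nature. Chronic peled thus held it above the control but far below the acute library. TRINITY_DN51870_c0_g1 had the second largest gain in value. It was at 2.96 in control, 481 in acute, 16.9 in chronic and 5.45 in nature peled, a log2 ratio of 6.93, and in omul at 7.40, 70.7, 2.06 and 3.78. In these 3 genes the acute library stood highest among the 4 peled libraries, and also among all 8.

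The remaining strong increases had the same shape. The 16 genes at least 16-fold higher began at 0.14 to 6.57 in the control, and the gene ranked 16th still went from 6.57 to 194. A step in the ranking followed, from a log2 ratio of 4.69 for the 16th gene to 3.999 for the 17th. Over the 29 genes at least 8-fold higher, a limit chosen after the values had been seen, the median value was 2.14 in control, 84.1 in acute, 9.89 in chronic and 2.45 in nature peled. In 25 of the 29 the chronic value lay between the control and the acute value, and in 4 it lay below both. The acute library was the highest of the 4 peled libraries in 28 of them. The exception ranked 28th. It was at 1.68 in control, 21.05 in acute and 1.27 in chronic peled, but at 1301 in peled from nature and at 407 to 772 in the 4 omul libraries.

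**Figure D3:**
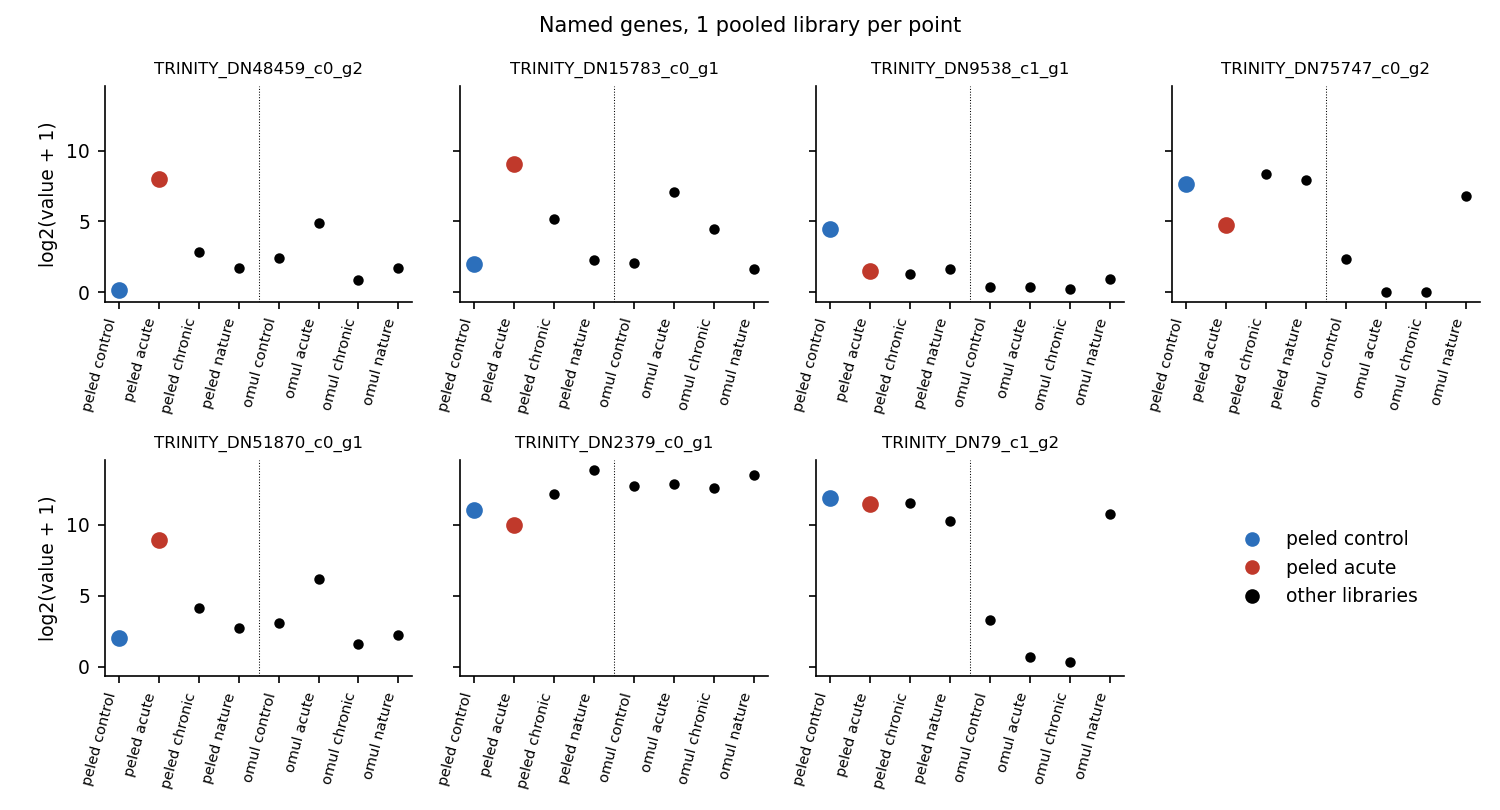
Each panel is a named gene and each point 1 pooled library, with log2(value + 1) on the y axis, peled left and omul right of the dotted line. In TRINITY_DN48459_c0_g2, TRINITY_DN15783_c0_g1 and TRINITY_DN51870_c0_g1 the acute library is the highest of each species, whereas TRINITY_DN9538_c1_g1 is high in the peled control alone.

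The 149 higher genes as a whole were mostly genes of low or middling level that gained a moderate amount. In the control 10 of them were below 1, 85 between 1 and 10, 52 between 10 and 100 and 2 at 100 or more. A gene below 10 in the control is read here only if its acute value is at least 10, so all 160 such genes had to lie above the control. The 48 of them at 4.50 or below had to be at least 2-fold higher. The median value of the 149 genes was 6.94 in control (quartiles 3.68 and 12.9) and 32.7 in acute peled (17.9 and 70.4). The median was 10.98 in chronic and 3.01 in nature peled. In omul it was 3.52 in control, 8.10 in acute, 3.36 in chronic and 4.35 in nature. The summed value of the 149 genes was 1867 in control and 9740 in acute peled, or 2.31% and 12.3% of each library's sum. The 29 genes at least 8-fold higher accounted for 4232 of the 9740.

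Genes of the same assembly component share all but the last number of this form of identifier. The 149 higher genes came from 137 components, and 10 components held at least 2 of them, 22 genes in all. In all 10 every listed gene of the component was higher. A further 5 components held 1 higher gene beside other listed genes, of which 4 were read, 2 of them above the control and 1 counted as lower. The component with the highest lowest ratio among its genes held 3, at 3.51, 0.28 and 3.79 in control and at 399, 96.2 and 227 in acute peled. The component of TRINITY_DN48459_c0_g2 held a further gene at 0.47 in control and 55.3 in acute peled. Genes of a component can share sequence and how reads were divided among them is not stated, so these genes are not independent counts. With values summed over components, 134 were higher and 82 lower.

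Decreases were shallower. TRINITY_DN9538_c1_g1 had the lowest ratio. It was at 21.5 in control, 1.86 in acute, 1.41 in chronic and 2.11 in nature peled, a log2 ratio of -2.98, and at 0.17 to 0.95 in the 4 omul libraries. The control alone was high, and the 3 other peled libraries were alike. TRINITY_DN75747_c0_g2 was at 198 in control, 25.6 in acute, 327 in chronic and 248 in nature peled, a log2 ratio of -2.90. Here the acute library alone was low among the peled. In omul it was at 4.08 in control, listed at 0 in the acute and chronic libraries and at 112 in nature. Its component holds a further listed gene, TRINITY_DN75747_c0_g1, which was at 1323 in control and 1249 in acute peled, a log2 ratio of -0.08.

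Both patterns occurred among the 86 lower genes. Their median value was 22.2 in control, 7.56 in acute, 8.72 in chronic and 5.50 in nature peled. The control was the highest of the 4 peled libraries in 62 of them (72.1%), against 341 of the 1216 genes read (28.0%). The acute library was the lowest of the 4 in 27 (31.4%), against 182 of 1216 (15.0%). By contrast, among the 149 higher genes the acute library was the highest of the 4 in 127 (85.2%), against 374 of the 1216 (30.8%), and the control the lowest in 35, against 76. The nature library was the lowest peled library in 826 of the 1216 genes, 85 of the 149 and 47 of the 86, which limits how often another library can be lowest. These places use the libraries that chose the genes and are a description. Whether a high control library contributed to the lower genes was not tested, as peled has 1 control library. A lower gene is read here through its control value, so each of the 86 had to begin at 10 or more. Of the 86 genes, 75 began between 10 and 100 in the control and 11 at 100 or more. They came from 85 components. Their summed value was 6258 in control and 2625 in acute peled, or 7.74% and 3.32% of the library's sum.

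**Figure D4:**
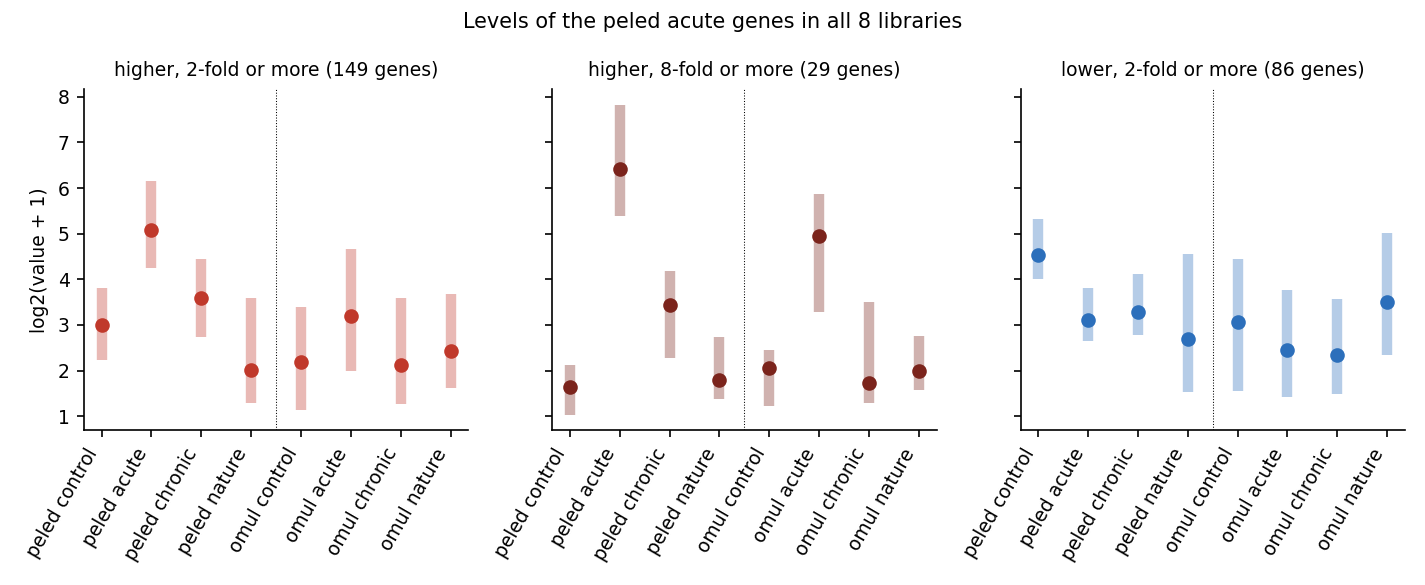
Points are medians and bars the quartiles of log2(value + 1) over the genes of each set in the 8 libraries, peled left and omul right of the dotted line. The higher sets peak in the acute library of peled and, by less, of omul; the lower set stands highest in the peled control, with medians of 7.56, 8.72 and 5.50 in the other peled libraries.

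The genes with the highest values differed little in ratio but much in value. Of the 20 highest genes of the control, 16 had a value below it in acute peled, against 647 of the 1216 genes read, with log2 ratios from -1.05 to 0.49 and a median of -0.27. These genes were picked for high control values, which by itself favours lower acute values. Among these 20 genes 1 was at least 2-fold lower and 0 at least 2-fold higher. Their summed value was 26832 in control and 22503 in acute peled. TRINITY_DN2379_c0_g1 had the largest decrease in value. It was at 2141 in control, 1033 in acute, 4639 in chronic and 14995 in nature peled, a log2 ratio of -1.05, and at 6175 to 11674 in omul. TRINITY_DN79_c1_g2, the highest gene of the control, was at 3758 there, 2881 in acute, 3047 in chronic and 1249 in nature peled, a log2 ratio of -0.38. In omul it was at 8.57 in control, 0.56 in acute, 0.26 in chronic and 1770 in nature. The higher genes thus gained 7873 in summed value, the lower genes had a change of -3633 and those within 2-fold of -5757, which left the library sums nearly level.

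The rule for peled uses no omul value, although how the deposited list itself was selected, omul libraries included, is not stated. The peled genes were therefore looked up in omul with no minimum value there, a reading added after the data had been seen. Of the 149 higher genes 111 (74.5%) lay above the control in acute omul, against 557 of all 1216 genes read in peled (45.8%), and their median log2 ratio in omul was 0.63 against -0.02. At least 2-fold higher in omul were 54 of the 149 (36.2%), against 8.31% of the 1216. The values in omul went up with the size of the peled ratio. For the 95 genes 2 to 4-fold higher in peled the median log2 ratio in omul was 0.40, and 20 (21.1%) were at least 2-fold higher there. For the 25 genes 4 to 8-fold higher the median was 0.86, with 10 at least 2-fold higher. For the 29 genes at least 8-fold higher it was 2.83, with 24 (82.8%) at least 2-fold higher and 28 above the omul control. Of the 86 lower genes, 23 (26.7%) lay above the omul control, with a median log2 ratio in omul of -0.46, and 20 (23.3%) were at least 2-fold lower there, against 10.4% of the 1216. These shares describe single libraries and were not tested.

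With the minimum value of 10 also applied in omul, 97 of 1190 genes (8.15%) were higher and 125 (10.5%) lower in acute omul, and 518 genes were read in both species. Of the 149 genes 69 were then read, 36 of them at least 2-fold higher in omul, 30 within 2-fold and 3 at least 2-fold lower. These counts are no measure of agreement, because 33 of the 69 were below 10 in the omul control and passed only through a high acute value. Of the 36 genes at 10 or more in the omul control, 7 were at least 2-fold higher in acute omul. Among all genes read in peled, 462 were at 10 or more in the omul control, and 9 of those were at least 2-fold higher. Of the 86 lower genes 36 were read in omul, each through a control value of at least 10, and 15 were at least 2-fold lower there. Of all 518 genes read in both species, 65 (12.5%) were at least 2-fold lower in omul. Among the 518, 56 were below 10 in the omul control and could not be lower, so the 65 lay among the 462.

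**Figure D5:**
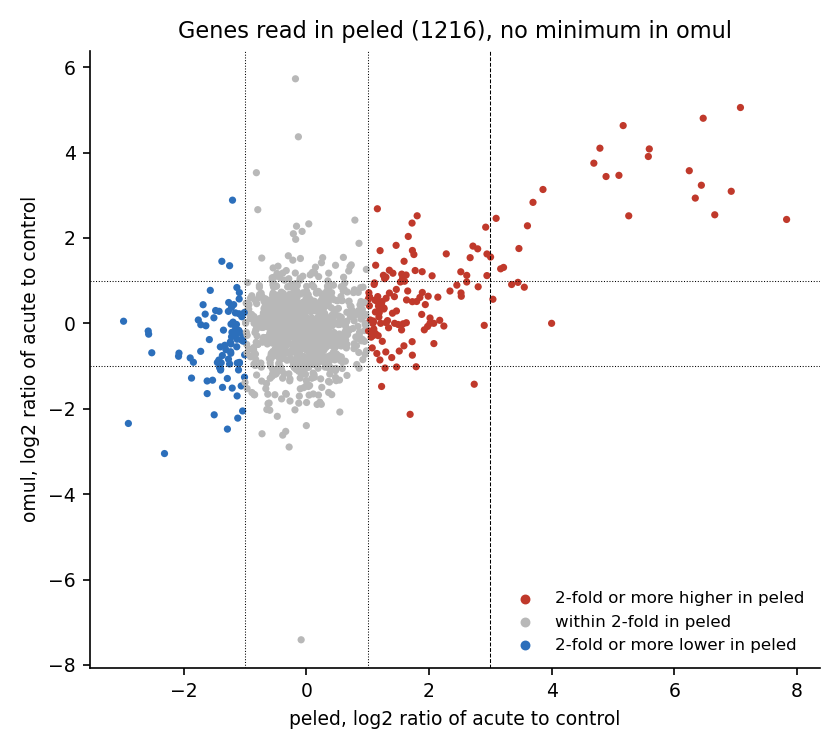
Each of the 1216 points is a gene read in peled, with the log2 ratio of acute to control in peled on the x axis and in omul, with no minimum value, on the y axis. Dotted lines mark 2-fold and the dashed line 8-fold in peled; 24 of the 29 genes beyond the dashed line lie above 2-fold in omul, against 20 of the 95 genes 2 to 4-fold higher in peled.

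Of the 149 higher genes 69 were read in omul, against 518 of all 1216 genes read in peled. By definition the 80 higher genes not read in omul were below 10 in its control and acute libraries. They included 8 of the 29 genes at least 8-fold higher in peled. In peled their median was 6.24 in control and 22.4 in acute, with a highest log2 ratio of 3.999. In omul their median was 1.50 in control and 3.15 in acute, and 55 of the 80 lay above the omul control. Of these genes 68 were below 10 in all 4 omul libraries and 12 reached 10 in omul from nature. Those 68 of the 149 stand against 433 of all 1216 genes read in peled. Whether reads of both species match the assembled genes equally well was not tested.

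With 1 library per group, a test of acute warming has to borrow its error from the agreement of the species. With all 8 libraries this error was pooled over all genes. limma's additive fit of species and state over all 8 libraries tests the mean difference of acute and control over both species, n = 2 libraries per state. It called 15 of 2184 genes (0.687%), 15 higher and 0 lower, with 37 at an unadjusted p below 0.05. Fitted to the 6 aquaculture-reared libraries alone, it called 16 of 2180 genes, 15 higher and 1 lower, with 188 at an unadjusted p below 0.05. The higher genes of the 2 fits were not the same 15. TRINITY_DN48459_c0_g2 and TRINITY_DN51870_c0_g1 were called with all 8 libraries but not with these 6. The peled contrast is part of this mean, so the call is no independent support for it. The 15 genes called with all 8 libraries were the top 15 of the peled ranking, with log2 ratios in peled of 4.79 to 7.83. The fitted difference of TRINITY_DN48459_c0_g2 was 5.13 on the log2 scale (SE 1.06), with a limma adjusted p of 0.000898, and that of TRINITY_DN51870_c0_g1 was 5.01 (SE 1.14), with 0.00317. Each was higher in 2 of 2 species. Over the alternative fits the adjusted p ranged from 0.000128 to 1.00 for the former and from 0.000287 to 1.00 for the latter, and with the 6 aquaculture-reared libraries it was 0.117 and 0.0641. For TRINITY_DN15783_c0_g1 the fitted difference was 6.07 (SE 1.17), with a limma adjusted p of 0.000542. With the 6 aquaculture-reared libraries its limma adjusted p was 0.00471. Like those genes it lost its call when the peled acute or control library was left out. It also lost it without the omul acute or control library. Its fitted difference was 5.30 to 6.83 over these fits. The largest falls did not pass, with an adjusted p of 1.00 for TRINITY_DN9538_c1_g1 and for TRINITY_DN75747_c0_g2.

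All 15 genes called with the 8 libraries had the larger log2 ratio in peled, by a median of 2.02 (range 0.53 to 5.40). As they are also the top 15 of the peled ranking, a larger ratio in peled is favoured by that choice. Whether the species differed after acute warming was tested with a species-by-acute term in limma, which sets the peled-omul difference after acute warming against its mean over the 3 other states. It called 0 of 2184 genes (0%), with 2 at an unadjusted p below 0.05, and its smallest adjusted p among the 15 was 0.996. With the 6 aquaculture-reared libraries alone it called 0 of 2180, with 72 at an unadjusted p below 0.05. With all 8 libraries the error of the term is wide, since the species differences of the other states, nature among them, serve as replicates. For TRINITY_DN48459_c0_g2 it was 3.24 (SE 2.04). The largest terms were those of TRINITY_DN75747_c0_g1 (5.37, SE 2.34) and of TRINITY_DN6368_c0_g2 (4.90, SE 2.01). In omul the former was at 343 in control, 1.02 in acute, 1.05 in chronic and 927 in nature. The latter was at 4.32 in control and 84.0 in acute peled while the 3 aquaculture-reared omul libraries listed it at 0. Its component holds a further listed gene, at 3.525 in control and 7.80 in acute omul. In peled that gene was at 11.5 in control and 135 in acute. The smallest terms were those of TRINITY_DN7158_c0_g2 (-4.07, SE 2.36) and TRINITY_DN198315_c1_g2 (-3.74, SE 2.01). The former was at 102 in control and 93.7 in acute peled. In omul it was at 4.10 in control, 104 in acute, 0.15 in chronic and 290 in nature. The latter was at 0.77 and 0.23 in peled and at 1.87 and 16.7 in omul. A greater response of peled than of omul is therefore a difference of single libraries that the test did not resolve.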

How the data were processed

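Poly(A) RNA of whole larvae was sequenced on an Illumina NovaSeq instrument, 1 library per pool of 12 to 16 larvae, per the labels' protocols. The authors deposited 1 normalized expression signal per gene and library, whose unit and scaling neither labels nor headers state. The submitters' processing notes list Trimmomatic 0.36 and edgeR 4.0.3 but not what each did. Assembler, quantifier and annotation: not given in the sources used here. Depth is unknown: of the low values in each library 16.8% to 22.3% lay within 0.1 of a multiple of its smallest value, so reads were not recovered.

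Libraries were grouped by their titles. Ratios were taken as log2((acute + 1)/(control + 1)) as deposited (Python 3.11.15), which understates changes of low genes. Tests used log2(value + 1) in limma 3.58.1 under R 4.3.3, with an intensity trend, genes with a mean of at least 1 and Benjamini-Hochberg adjustment over 2184 genes, called below 0.05. The additive fit has 3 residual degrees of freedom and the fit with the species-by-acute term 2. In both, limma's prior degrees of freedom were infinite. The error of each gene was thus a variance trend pooled over all genes, and its own residual had no weight. The fits were also run on simulated data. Besides the changes put in, the simulation held only independent noise, smaller than the residual spread here. It therefore gives no error rate for these data. In these main fits, p-values measure the spread between pooled libraries of different species over all genes. They do not measure the agreement of the species in a single gene. Some alternatives had finite prior degrees of freedom. In the additive fit these were 5.55 with the 6 aquaculture-reared libraries and 22.8 with a pseudocount of 0.1. There the residual of each gene had some weight. Alternatives were other pseudocounts (0.1 and 5), minimum values (5, 20 and none), scaling to a common median, sums over components, the 6 aquaculture-reared libraries and leaving out each library.

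The comparison, its limits and the tests were chosen with earlier results of these data known. Identifiers named are the 2 highest and 2 lowest ratios among genes read, the 2 largest rises and falls in value, and the 2 largest and smallest species-by-acute terms. Other genes are given by rank and count, and the 8-fold and 16-fold groups and the genes of the flagged count were picked after their values were seen. Prepared lists of chaperones, immediate early, digestive, muscle and red blood cell genes could not be matched to identifiers and gave no result.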

Additional observations from a re-analysis of the deposited data

Results flagged for a closer look

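Among the 518 genes read in both species, 69 were at least 2-fold higher in acute than in control peled. Of these, 3 were at least 2-fold lower in acute than in control omul, opposite directions under the same warming with 1 library a side. Of all 518 genes, 12.5% were at least 2-fold lower in acute omul. The 3 genes were singled out after their values were seen. All 3 were below 10 in the peled control, so being read in peled already placed them above it. TRINITY_DN9807_c0_g3 was at 3.68 in control and 14.1 in acute peled and at 64.8 and 14.02 in omul, log2 ratios of 1.69 and -2.13. TRINITY_DN35_c7_g5 was at 3.67 and 15.2 in peled and at 42.4 and 20.4 in omul, log2 ratios of 1.79 and -1.02. The remaining gene was at 8.95 and 22.3 in peled and at 13.1 and 4.07 in omul. Opposite directions from the control were not tested as such. The species-by-acute term, which uses all other states, was 1.11 to 2.39 (SE 2.09 to 2.26) with a limma adjusted p of 0.996 for each.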

How the results depend on the processing

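The count of higher genes, 149 as reported, was 113 to 201 over the 7 alternatives to the ratio rule, within 1.5 times in each. The count of lower genes was 86 as reported, 46 with a pseudocount of 5, 49 with a minimum value of 20 and 152 with no minimum value. Genes higher in both species numbered 59 in place of 36 with no minimum value. With no minimum in omul alone, a setting added after seeing the data, 54 were higher and 20 lower in both. Genes lower in both numbered 5 in place of 15 with a pseudocount of 5, 25 with a minimum of 5, 5 with a minimum of 20 and 31 with no minimum. At least 8-fold higher genes numbered 19 to 36 and at least 8-fold lower genes 0 to 2 over these settings. Scaling to a common median gave 139 higher and 100 lower. Ratios of named genes were taken again only with the 2 other pseudocounts and with scaling to a common median. These 21 alternative ratios kept their direction and their side of 2-fold. No ratio of a named gene was taken from sums over components. The mean acute difference over both species called 3 genes with a pseudocount of 0.1, and 0 to 16 when a library was left out. Without an acute or control library of a species, that contrast takes the missing state from the other species alone. It is then adjusted by the species difference over the remaining states, so it is not a ratio within 1 species. It called 0 without the peled control or acute library, 1 without either of the omul ones and 3 without either chronic library. The species-by-acute term called 0 genes under each alternative run, and could not be fitted without an acute library. Unknown depth and single libraries limit every value. Beyond the species term of the fits, no pairing was possible because each group holds 1 library and the labels give no replicate numbers.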
